A study of Homo sapiens with 6 samples.

Results

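The 50 genes described here act in G2/M, at the spindle and at the kinetochore. They were taken by name from a list of mitotic genes, with no threshold on their values. The choice was made with earlier results of these data known. All 50 matched a symbol among the 60671 genes of the deposited table, all are protein-coding, and all had counts in each of the 6 libraries, the lowest being 143 counts. mRNA was sequenced from the lung adenocarcinoma lines A549, HCC827 and H1975, labelled WT, after 48 h with AL-X (9α,11α-dihydroxy-kaurenoic acid, a derivative of the plant diterpenoid kaurenoic acid) at 10 µg/mL or with the solvent DMSO alone. Each line gave 1 AL-X and 1 DMSO library. The lines share their tumour type but not their driver mutations: HCC827 and H1975 carry mutant EGFR, and A549 does not.

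Entry into mitosis is set by cyclin B bound to the kinase CDK1. Spindle motors then align the chromosomes, and the spindle checkpoint holds the anaphase-promoting complex (APC/C) until every kinetochore is attached. Most genes of this programme share promoter elements and peak together in G2 and M, so their mRNAs are widely used as a readout of how many cells of a tumour line are cycling. In bulk RNA, fewer cells in G2 and M and less mRNA per such cell cannot be told apart.

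The shared promoter elements are the cell cycle homology region (CHR, TTTGAA), through which the MuvB complexes bind, and the CCAAT box, bound by NF-Y. Both words were searched on both strands in the RefSeq promoters of build GRCh38.p14, which run from 250 bases before to 50 bases after each gene's start. Of the 50 genes, 41 had a promoter in that table. The CHR word was present in 29 of these 41 (70.7%), against 15.4% of all 27305 promoters. CCAAT was present in 31 (75.6%), against 35.7% of all promoters, and both words together in 58.5% against 6.08%. The 4 promoters shown are those of PLK1, CKS2, ASPM and SPC24. PLK1 holds 1 copy of each word at close spacing. CKS2 had the highest fold of the members in A549 and H1975. ASPM and SPC24 were among the 3 members with the lowest fold in HCC827 and in H1975. Capitals mark the CHR word (TTTGAA, or TTCAAA on the other strand) and the CCAAT word (CCAAT, or ATTGG on the other strand).
PLK1 promoter: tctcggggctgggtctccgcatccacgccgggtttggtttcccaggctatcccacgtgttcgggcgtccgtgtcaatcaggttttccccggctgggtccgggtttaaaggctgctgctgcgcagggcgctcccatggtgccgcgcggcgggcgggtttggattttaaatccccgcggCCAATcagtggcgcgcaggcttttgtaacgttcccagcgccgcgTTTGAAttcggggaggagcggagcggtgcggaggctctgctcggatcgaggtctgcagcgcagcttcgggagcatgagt
CKS2 promoter: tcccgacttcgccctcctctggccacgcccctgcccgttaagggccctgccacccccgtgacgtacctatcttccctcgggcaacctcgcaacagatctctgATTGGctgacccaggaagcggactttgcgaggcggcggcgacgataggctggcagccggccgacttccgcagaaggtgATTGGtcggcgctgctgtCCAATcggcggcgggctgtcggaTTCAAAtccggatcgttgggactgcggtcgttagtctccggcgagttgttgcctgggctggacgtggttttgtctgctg
ASPM promoter: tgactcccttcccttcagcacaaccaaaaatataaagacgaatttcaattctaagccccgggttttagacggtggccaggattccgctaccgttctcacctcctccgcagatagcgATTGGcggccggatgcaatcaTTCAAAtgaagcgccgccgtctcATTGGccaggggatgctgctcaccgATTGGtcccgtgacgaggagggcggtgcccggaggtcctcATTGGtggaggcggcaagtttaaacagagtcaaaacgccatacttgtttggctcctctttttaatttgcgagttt
SPC24 promoter: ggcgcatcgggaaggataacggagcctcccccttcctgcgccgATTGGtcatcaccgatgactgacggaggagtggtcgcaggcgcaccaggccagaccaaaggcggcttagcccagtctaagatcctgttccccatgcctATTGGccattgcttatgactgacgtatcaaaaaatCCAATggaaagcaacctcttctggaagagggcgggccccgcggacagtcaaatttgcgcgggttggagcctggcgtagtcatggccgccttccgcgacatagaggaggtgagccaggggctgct
These windows are chr16:23678639-23678938 on the plus strand for PLK1, chr9:89310945-89311244 on the plus strand for CKS2, chr1:197146620-197146919 on the minus strand for ASPM and chr19:11155733-11156032 on the minus strand for SPC24. PLK1 has its CHR word at -29 and its CCAAT word at -73, counted from the gene's start. CKS2 also has its CHR word at -29, with CCAAT words at -148, -70 and -52. ASPM has 4 CCAAT words, and its CHR word lies farther out, at -113. SPC24 has 3 CCAAT words and no TTTGAA in this window.

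The words also started at certain positions more often in the 41 promoters than in all promoters. A CHR word started in the last 50 bases before the gene's start in 39% of them, against 2.57% of all promoters. A CCAAT word started from 100 to 51 bases before the start in 58.5%, against 13.5% of all promoters. The AL-X folds of genes with and without a CHR word overlapped. The 29 genes that hold it had a median log2 fold (AL-X over DMSO, on the scale defined below) of 0.39, -1.53 and -0.23 in A549, HCC827 and H1975, and the 12 without it had 0.70, -1.22 and 0.10. In HCC827 the range was -2.77 to 0.06 with the word and -3.29 to -0.02 without it.

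**Figure D1:**
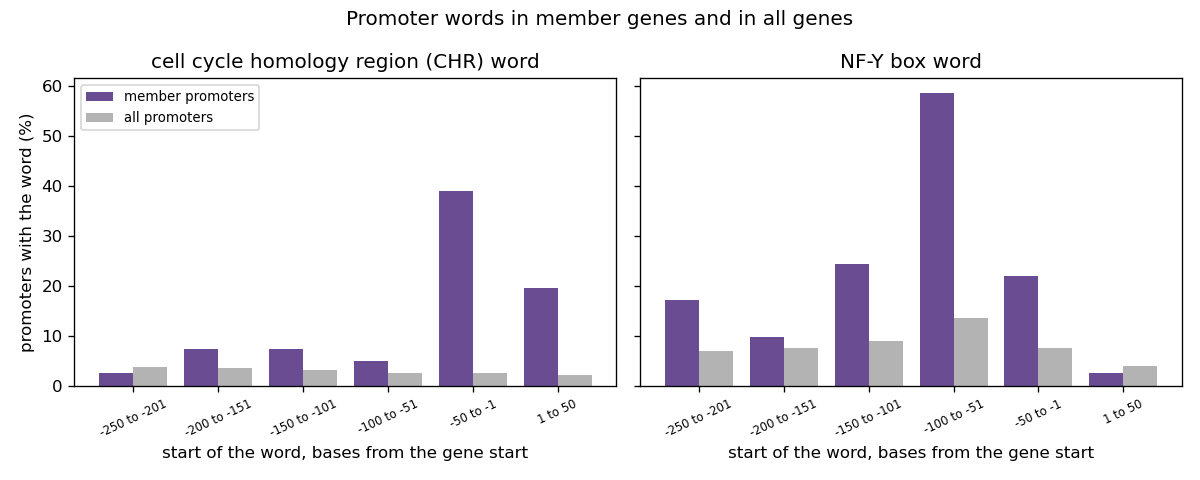
Share of promoters (%) in which the CHR word (left) or the NF-Y box word (right) starts, by 50-base step from the gene's start, for the 41 member promoters (purple) and all 27305 promoters (grey). The member bars stand highest in the last 50 bases before the start for the CHR word (39% against 2.57%) and from 100 to 51 bases before it for the NF-Y box (58.5% against 13.5%).

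The libraries held between 98139178 and 126840915 counts. Each AL-X library differed from its DMSO library in more than the genes described here. Mitochondrially encoded genes took 0.0201%, 0.656% and 0.0535% of counts in the AL-X libraries of A549, HCC827 and H1975, against 6.87%, 6.69% and 6.41% in their DMSO libraries. Genes with at least 1 count numbered 24046 to 26694 with AL-X against 26979 to 27874 with DMSO. The scaling factors by which TMM, a method that lines up the bulk of genes, corrects each total also moved apart, to 0.557 for AL-X against 1.12 for DMSO in A549, 0.903 against 1.20 in H1975 and 1.27 against 1.17 in HCC827. The part of these shifts in the mitotic folds was not tested. The epithelial keratins KRT8 and KRT18 were at 362 to 2750 counts per 1e6 scaled counts (CPM) in every library, and the leukocyte genes PTPRC and CD3E had 0 counts in all 6. The lung lineage factor NKX2-1 was at 0 CPM with AL-X and 0.081 CPM with DMSO in A549, against at least 18.8 CPM in the libraries of the other lines. Other cell type markers that were listed, among them CD68, SFTPB and NAPSA, are not given here.

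As a share of all counts, the 50 genes were lower with AL-X in every line. They took 0.618% of counts with AL-X against 0.831% with DMSO in A549, and 0.634% against 0.862% in H1975. In HCC827 they took 0.325% with AL-X (exact binomial 95% interval 0.324 to 0.327) against 0.722% with DMSO (0.721 to 0.724). After TMM scaling the lines parted. The summed level was 11096 CPM with AL-X against 7439 with DMSO in A549, with 2556 against 6198 in HCC827 and 7016 against 7184 in H1975 cells. The median member had 157 CPM with AL-X against 90.7 with DMSO in A549 cells, 33.5 against 80.0 in HCC827 cells and 98.1 against 90.2 in H1975 cells. In HCC827 the group stood lower with AL-X on every scale. In A549 the direction of the group depended on the scaling: the median log2 fold of the members was 0.46 after TMM and -0.55 with library totals, a change that carried all genes, whose folds moved by a median of -1.0. In H1975 the medians were -0.04 and -0.45, and all genes moved by -0.41. In HCC827 they were -1.46 and -1.33, and all genes moved by 0.13. With library totals the fold of 19 members changed sign in A549, of 10 in H1975 and of 1 in HCC827, so directions in A549 are relative to the bulk of genes.

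Folds below are of TMM-scaled CPM with a prior count of 2. Within a line there is a single library per treatment, so no test was possible. A member was counted as lower or higher from a 2-fold difference on, and only where the library with more of it reached 5 CPM. In HCC827, 31 of 49 members were at least 2-fold lower and 0 at least 2-fold higher, where 17.3% of all 11936 genes at that level were 2-fold lower and 10.7% higher. The 50th gene, CENPM, was 2.91-fold lower but stayed under 5 CPM. In A549, 8 members were at least 2-fold lower and 17 at least 2-fold higher, beside 31.6% and 30.1% of all genes, so the 34.0% of members that were higher is close to the background. In H1975, 11 were lower and 4 higher, beside 17.8% and 15.4% of all genes. HCC827 had the lowest of the 3 folds for 43 of the 50 members, or 86%, against 41% of 9673 protein-coding genes. The order A549, H1975, HCC827 from highest to lowest fold held for 36 members (72%), against 28.6% of protein-coding genes. A set of 22 members was lower in HCC827 and higher in both other lines, or 44.0% against 17.2% of protein-coding genes. With library totals this set held 8 members, or 16.0% against 6.95%.

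**Figure D2:**
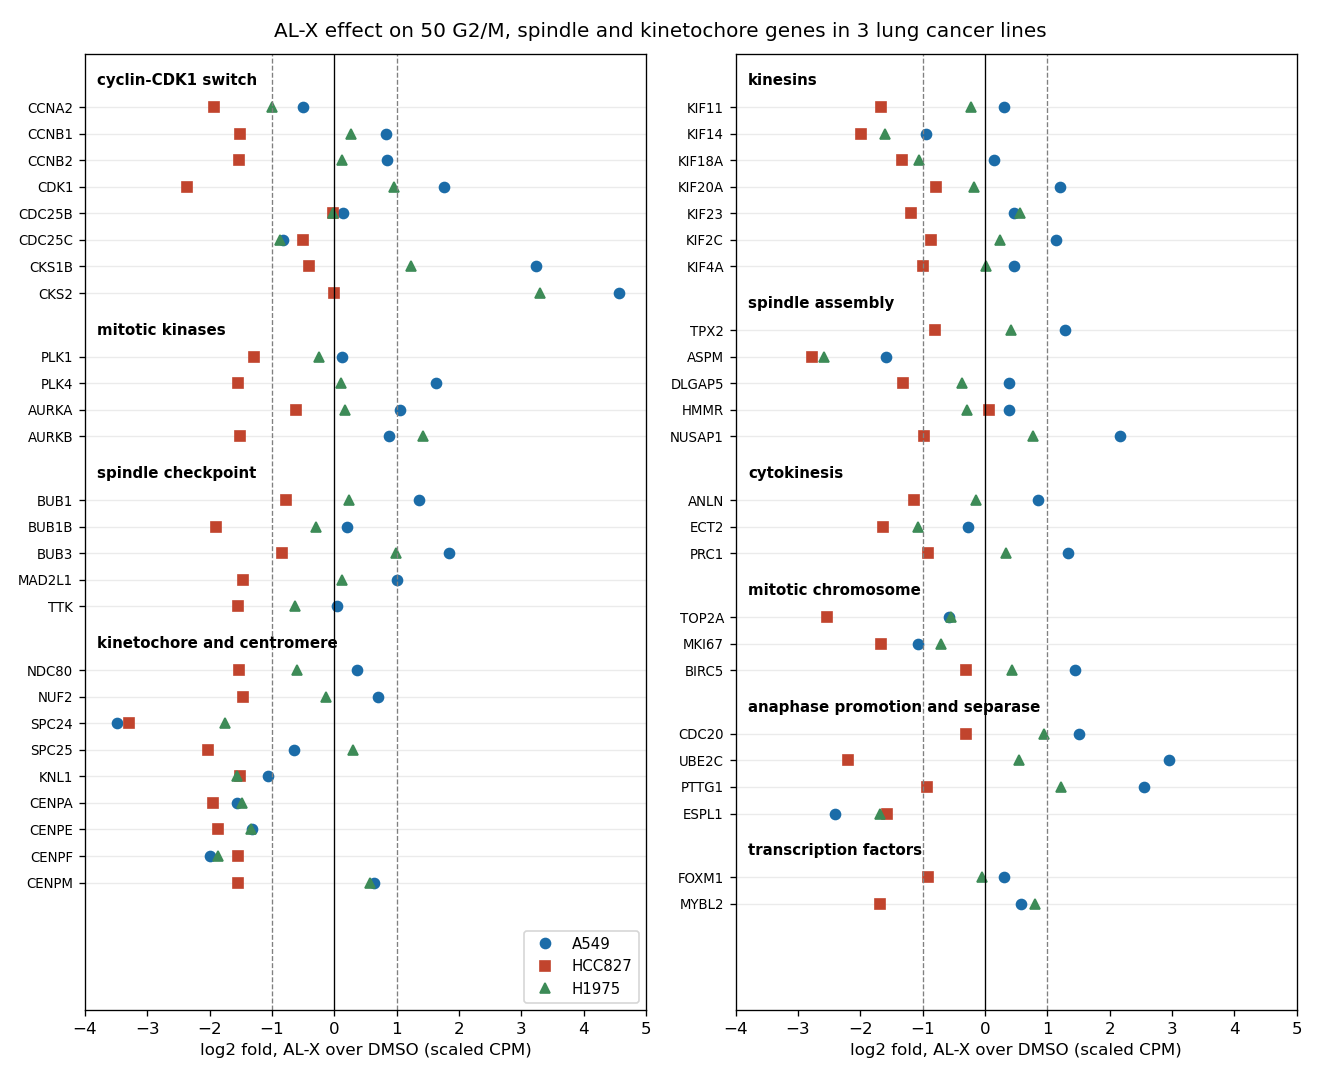
Log2 fold (AL-X over DMSO, TMM-scaled CPM) of each of the 50 genes in A549 (blue circles), HCC827 (red squares) and H1975 (green triangles), grouped by role, with 1 library per treatment and line and dashed lines at 2-fold. The HCC827 squares lie left of 0 for all genes except CKS2 at 0.00 and HMMR at 0.06, while A549 and H1975 spread to both sides.

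After TMM scaling, CDK1 and its B-type cyclins differed in direction between the lines. CDK1 (ENSG00000170312, GENCODE 29 on GRCh38, chromosome 10, 60778331 to 60794852, plus strand), the kinase that drives mitotic entry, had 269 CPM with AL-X against 79.4 with DMSO in A549, with 10.9 against 55.9 in HCC827 and 167 against 86.2 in H1975. It was thus 3.39-fold higher in A549, 1.94-fold higher in H1975 and 5.14-fold lower in HCC827. Cyclin B1 (CCNB1), its activating subunit, had 293 CPM with AL-X against 166 with DMSO in A549 cells, 55.9 against 159 in HCC827 cells and 189 against 158 in H1975 cells. CCNB2, the second B-type cyclin, kept the same order with log2 folds of 0.85, -1.53 and 0.12 in A549, HCC827 and H1975. With library totals CCNB1 was at -0.18, -1.38 and -0.15 and CCNB2 at -0.15, -1.4 and -0.29, both lower in all 3 lines. CDK1 was at 0.76, -2.23 and 0.55 on that scale. Cyclin A2 (CCNA2), which acts from S phase into early mitosis, was lower in all 3 lines, at -0.50 in A549, -1.93 in HCC827 and -1.0 in H1975. Of the phosphatases that switch CDK1 on, CDC25B stayed within 0.14 log2 units of 0 in each line. With library totals it was at -0.87, 0.11 and -0.44 in A549, HCC827 and H1975. CDC25C was at -0.82 in A549, -0.50 in HCC827 and -0.88 in H1975, and at -1.83, -0.37 and -1.29 with library totals. CDC25C shares 293 exonic bases with FAM53C on the opposite strand, which had 20585 counts with AL-X against 6579 with DMSO in A549, beside 727 and 2346 for CDC25C.

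CKS2 and CKS1B encode small proteins that bind CDK1 and help it recognise substrates already phosphorylated. CKS2 (ENSG00000123975, chromosome 9, 89311198 to 89316703, plus strand) had 944 CPM with AL-X against 40.0 with DMSO in A549, with 31.8 against 31.7 in HCC827 and 444 against 45.0 in H1975 cells. The DMSO levels were alike in the 3 lines, and the AL-X level was 23.6-fold higher in A549, 9.86-fold higher in H1975 and equal to DMSO within counting error in HCC827 (95% interval of the log2 ratio -0.06 to 0.07). CKS1B had 513 CPM with AL-X against 54.3 with DMSO in A549 cells, 25.9 against 34.5 in HCC827 cells and 109 against 46.2 in H1975 cells. CKS1B shares its sequence with processed copies. Among those listed, CKS1BP3 had 1971 counts with AL-X against 274 with DMSO in A549, and CKS1BP2 977 against 118, so how reads were split between CKS1B and its copies is uncertain.

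The mitotic kinases were likewise lower in HCC827. PLK1, which acts at centrosomes, kinetochores and the cleavage furrow, had 179 CPM with AL-X against 165 with DMSO in A549, with 40.1 against 98.2 in HCC827 and 120 against 142 in H1975. AURKA, the centrosomal Aurora kinase, had 232 CPM with AL-X against 112 with DMSO in A549 cells, 66.4 against 101 in HCC827 cells and 102 against 90.4 in H1975 cells. AURKB, the kinase of the chromosomal passenger complex, had 71.4 CPM with AL-X against 38.9 with DMSO in A549, with 17.5 against 49.9 in HCC827 and 193 against 72.4 in H1975. H1975 was the line with the highest AURKB fold. PLK4, which licenses centriole duplication, was at 1.63 in A549, -1.55 in HCC827 and 0.10 in H1975. Of the 4 kinases, 3 were at least 2-fold lower in HCC827, beside 17.3% of all genes. In A549, 2 were at least 2-fold higher, beside 30.1% of all genes (AURKA and PLK4, which with library totals were at 0.05 and 0.62 there).

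The 5 spindle checkpoint genes were all lower in HCC827, where 52% of all genes were lower by any amount. In A549, 4 were higher, beside 49.9% of all genes. TTK was at its DMSO level there within counting error (log2 fold 0.04, 95% interval -0.03 to 0.11). With library totals BUB1B and TTK were lower in A549 (-0.80 and -0.97). BUB1B, which encodes the APC/C inhibitor BUBR1, had 98.1 CPM with AL-X against 84.8 with DMSO in A549 cells, 26.1 against 97.5 in HCC827 cells and 50.8 against 62.6 in H1975 cells. It was 3.73-fold lower in HCC827, with log2 folds of 0.21 in A549 and -0.30 in H1975. BUB3, the WD-repeat partner of BUB1 and BUBR1, was 3.57-fold higher in A549 and 1.99-fold higher in H1975, against 1.79-fold lower in HCC827. BUB1, a checkpoint kinase, MAD2L1, which encodes the Mad2 inhibitor, and TTK, the Mps1 kinase, had log2 folds of 1.36, 1.00 and 0.04 in A549 and of -0.77, -1.46 and -1.55 in HCC827. MAD2L1 in A549 was at 0.00 with library totals. In H1975 the 5 genes ran from -0.63 (TTK) to 0.99 (BUB3).

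Kinetochore and centromere genes were mostly lower in each line. Of 9 genes, 5 were at least 2-fold lower in A549 (55.6%, beside 31.6% of all genes) and 5 in H1975 (beside 17.8%), and all 8 above 5 CPM in HCC827 (beside 17.3%). With the trend of fold on gene length removed, as described below, the A549 count was 3 of 9, or 33.3% against 28.1% of protein-coding genes. The H1975 count was 4, or 44.4% against 15.6%. SPC24 (ENSG00000161888, chromosome 19, 11131520 to 11155808, minus strand), a subunit of the NDC80 complex that grips microtubules, had 2.11 CPM with AL-X against 23.8 with DMSO in A549, with 1.90 against 18.8 in HCC827 and 7.71 against 26.0 in H1975. That is 11.2-fold (A549), 9.79-fold (HCC827) and 3.36-fold (H1975) lower, resting in A549 on 143 counts with AL-X and 2944 with DMSO. After TMM scaling the 4 subunits of the complex parted in A549. Per kilobase of exon, NDC80 was at 6.34 CPM with AL-X against 4.94 with DMSO there, NUF2 at 14.1 against 8.67, SPC25 at 6.01 against 9.40 and SPC24 at 0.744 against 8.40. With DMSO the 4 levels thus lay within a range of 4.94 to 9.40 CPM per kilobase, and with AL-X SPC24 was the lowest of the 4. With library totals all 4 were lower in A549. The log2 folds of NDC80, NUF2, SPC25 and SPC24 were then -0.65, -0.3, -1.65 and -4.48. With the length trend removed they were -0.01, 0.27, -1.6 and -4.09. In HCC827 all 4 were lower with AL-X, NDC80 at 2.30 against 6.67, NUF2 at 2.88 against 7.92, SPC25 at 1.13 against 4.61 and SPC24 at 0.671 against 6.62 CPM per kilobase. In H1975 NUF2 and SPC25 were near their DMSO levels, at 13.4 against 14.6 and 6.05 against 4.90, with NDC80 at 5.32 against 8.09 and SPC24 at 2.72 against 9.14. The strand setting of the counting is not given, so the SPC24 counts may include reads of an overlapping gene.

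CENPA, the histone H3 variant that marks the centromere, had 13.4 CPM with AL-X against 39.6 with DMSO in A549 cells, 5.85 against 22.7 in HCC827 cells and 12.1 against 33.8 in H1975 cells. Its log2 folds were -1.56, -1.95 and -1.48. CENPF, a large kinetochore protein, had 143 CPM with AL-X against 572 with DMSO in A549, with 152 against 445 in HCC827 and 141 against 514 in H1975. All AL-X values of CENPF lay between 141 and 152 CPM, and all DMSO values between 445 and 572. CENPE, a kinetochore kinesin, and KNL1, the scaffold that recruits BUB proteins, followed, with log2 folds of -1.32 and -1.07 in A549, -1.87 and -1.52 in HCC827, and -1.34 and -1.57 in H1975. CENPA shares 138 exonic bases with SLC35F6 on the same strand, which had 1933 counts with AL-X against 19384 with DMSO in A549 and 8443 against 6737 in HCC827.

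Kinesins, the motors of the spindle, were all lower in HCC827, where 52% of all genes were lower by any amount. Their log2 folds there ran from -1.99 (KIF14) to -0.79 (KIF20A). KIF11, the plus-end motor that pushes spindle poles apart, had 209 CPM with AL-X against 169 with DMSO in A549 cells, 23.5 against 74.5 in HCC827 cells and 102 against 120 in H1975 cells. KIF14, a motor of cytokinesis, was lower in every line, at -0.95 in A549, -1.99 in HCC827 and -1.60 in H1975. KIF20A and KIF2C, a central spindle motor and a microtubule depolymerase, were the 2 kinesins at least 2-fold higher in A549 (1.21 and 1.14, and 0.21 and 0.13 with library totals). That is 28.6% of the kinesins, close to the 30.1% of all genes. KIF18A, KIF23 and KIF4A had log2 folds of 0.14, 0.46 and 0.46 in A549, of -1.33, -1.19 and -1.0 in HCC827, and of -1.06, 0.56 and 0.02 in H1975.

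Of the 5 spindle assembly factors, ASPM alone was lower in all 3 lines. ASPM (ENSG00000066279, chromosome 1, 197084128 to 197146694, minus strand), a spindle pole protein known from inherited microcephaly, had 104 CPM with AL-X against 309 with DMSO in A549, with 32.4 against 221 in HCC827 and 23.4 against 140 in H1975 cells. The AL-X level was thus 2.98-fold under that of DMSO in A549, 6.81-fold in HCC827 and 5.98-fold in H1975. TPX2, which activates AURKA on the spindle, had 686 CPM with AL-X against 281 with DMSO in A549 cells, 228 against 398 in HCC827 cells and 423 against 319 in H1975 cells. NUSAP1, a microtubule bundling protein, was 4.51-fold higher in A549 and 1.97-fold lower in HCC827. DLGAP5 had log2 folds of 0.39, -1.31 and -0.37 in A549, HCC827 and H1975. HMMR, a spindle protein that binds hyaluronan outside the cell, had the highest fold of the members in HCC827 (log2 0.06), at 92.7 CPM with AL-X against 88.7 with DMSO.

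**Figure D3:**
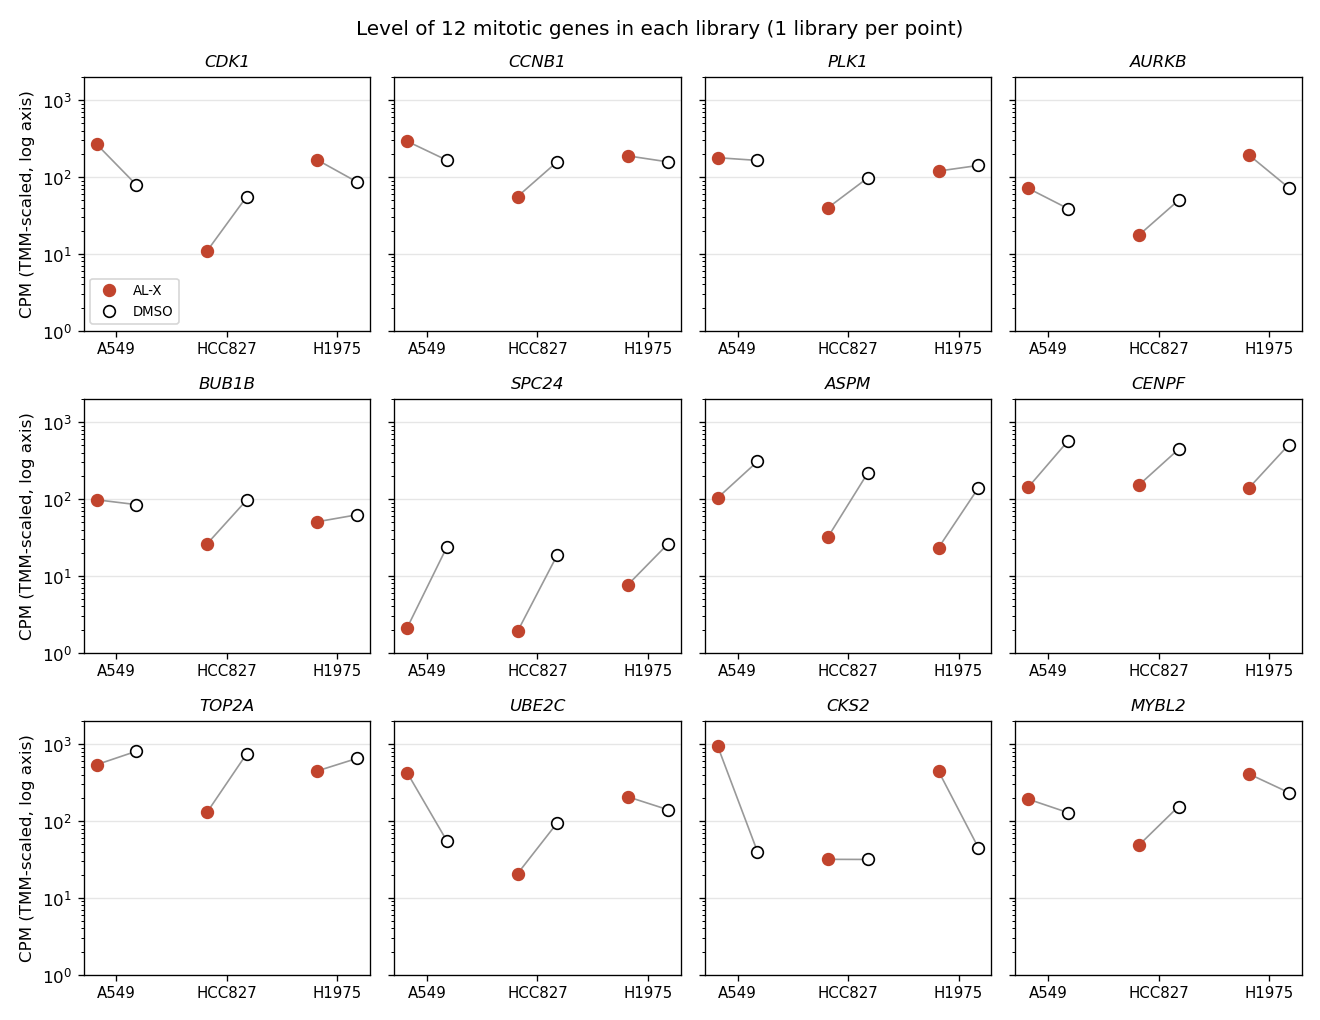
TMM-scaled CPM (log axis) of 12 of the 50 genes in each library, AL-X as filled red circles and DMSO as open circles, joined within A549, HCC827 and H1975, 1 library per point. SPC24, ASPM and CENPF lie lower with AL-X in all 3 lines, and CDK1, UBE2C and CKS2 lie higher with AL-X in A549 and H1975 but not in HCC827.

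Of the cytokinesis genes, ECT2, the exchange factor that activates RhoA at the furrow, was lower in all 3 lines (-0.27 in A549, -1.64 in HCC827 and -1.07 in H1975). ANLN, a furrow scaffold, and PRC1, which bundles the central spindle, were at 0.85 and 1.34 in A549, at -1.14 and -0.92 in HCC827 and at -0.15 and 0.34 in H1975. PRC1 shares 57.57% of its exonic bases with a second gene model on the same strand. Summed with it, PRC1 was at 1.30, -1.04 and 0.70 in A549, HCC827 and H1975. NUSAP1 overlaps another such model over 62.16% of its exonic bases and was at 2.14, -0.98 and 0.56 when summed.

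TOP2A, the topoisomerase that untangles sister chromatids, and MKI67, which encodes the proliferation antigen Ki-67 on mitotic chromosomes, were lower in each line. TOP2A had 543 CPM with AL-X against 812 with DMSO in A549, with 130 against 756 in HCC827 and 451 against 657 in H1975. MKI67 had 513 CPM with AL-X against 1087 with DMSO in A549 cells, 177 against 559 in HCC827 cells and 640 against 1038 in H1975 cells. TOP2A was 5.84-fold lower in HCC827, beside 1.5-fold in A549 and 1.46-fold in H1975. MKI67 was 3.15-fold lower in HCC827, 2.12-fold in A549 and 1.62-fold in H1975. BIRC5, the survivin subunit of the passenger complex, had log2 folds of 1.45, -0.31 and 0.43 in A549, HCC827 and H1975.

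The genes that start anaphase split within A549. UBE2C (ENSG00000175063, chromosome 20, 45812576 to 45816957, plus strand), the ubiquitin-conjugating enzyme of the APC/C, had 428 CPM with AL-X against 55.2 with DMSO in A549, with 20.7 against 95.3 in HCC827 and 207 against 141 in H1975. It was 7.74-fold higher in A549 and 4.61-fold lower in HCC827. CDC20, the APC/C activator held by the checkpoint, had 269 CPM with AL-X against 94.6 with DMSO in A549 cells, 155 against 191 in HCC827 cells and 194 against 101 in H1975 cells. The inhibitor and the protease of sister separation went opposite ways in 2 lines. PTTG1, the securin that restrains separase, was 5.86-fold higher in A549 and 2.32-fold higher in H1975, and 1.90-fold lower in HCC827. ESPL1, the separase itself, had 12.9 CPM with AL-X against 68.8 with DMSO in A549, with 17.4 against 51.5 in HCC827 and 41.1 against 133 in H1975. ESPL1 was thus 5.32-fold lower in A549, 2.96-fold in HCC827 and 3.23-fold in H1975. Reads may also be shared with the near-identical copies of PTTG1, of which PTTG3P and PTTG2 had at most 7 counts in any library.

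Both transcription factors of the programme were lower in HCC827. FOXM1, which drives G2/M genes, had 161 CPM with AL-X against 131 with DMSO in A549 cells, 62.1 against 117 in HCC827 cells and 132 against 137 in H1975 cells. MYBL2, the B-MYB subunit that joins MuvB at CHR promoters, had 193 CPM with AL-X against 129 with DMSO in A549, with 48.4 against 155 in HCC827 and 410 against 235 in H1975. FOXM1 shares 15.94% of its exonic bases with ITFG2 on the opposite strand.

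A shared effect of AL-X was tested over the 3 lines with edgeR's quasi-likelihood test, the line entering as a block and p-values adjusted by Benjamini-Hochberg over 20344 genes. Of all genes, 0.256% passed at 0.05 (52 genes), and 0 of the 50 members did. At an unadjusted p under 0.05 there were 10 members, 9 lower and 1 higher, or 20.0% against 15.7% of all genes. The 9 were ASPM (across-line log2 fold -2.32, SE 0.53, edgeR adjusted p = 0.106), SPC24 (-2.86, SE 0.67, adjusted p = 0.113), ESPL1, CENPE, CENPF, CENPA, KIF14, KNL1 and CCNA2, the last 7 with folds from -1.89 to -1.15 and adjusted p from 0.126 to 0.290. The 1 higher was CKS2 (2.75, SE 0.93, adjusted p = 0.21). Other models called more, among all genes and among these. DESeq2, which called 9.76% of all genes, had CKS2 risen and 7 members fallen (SPC24, ASPM, CENPF, ESPL1, CENPA, CENPE and KIF14). Limma-voom, which called 3.25% of all genes, had CKS2 risen and ASPM, SPC24 and CENPF fallen. In edgeR with 1 line left out, CKS2 rose without HCC827 (log2 fold 3.89, adjusted p = 0.0208) and ASPM fell without A549 (-2.63, adjusted p = 0.0116). CKS2 was at 1.70 without A549 (adjusted p = 0.544) and 2.28 without H1975 (0.742), and ASPM at -2.12 without HCC827 (0.0977) and -2.18 without H1975 (0.522). The median across-line log2 fold was -0.16 for the members and -0.27 for all genes. It depended on the lines included: without A549 it was -0.65 for the members and -0.13 for all genes, without HCC827 0.22 and -0.39, and without H1975 -0.36 and -0.23. With library totals it was -0.59 and -0.69.

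ASPM, SPC24, ESPL1, CENPE, CENPF, CENPA and KNL1 were at least 2-fold lower in each of the 3 lines, and 14.0% of members against 3.33% of protein-coding genes met that mark. A further 6 members were lower in every line by less, which makes 13, or 26.0% against 21.7% of protein-coding genes, and 0 members were higher in every line, against 24.0%. With library totals 27 members were lower in every line and 1 was higher. The count of 7 became 11 with library totals and 4 once the trend of fold on length was removed (CCNA2, SPC24, CENPA and ESPL1). Matching shares of protein-coding genes are not given here, so the counts on these other scales have no background beside them. Library totals shifted protein-coding genes too. At least 2-fold lower were 52.0% of them in A549 (31.5% after TMM), 26.7% in H1975 (16.6%) and 15.2% in HCC827 (17.2%). The part of scaling in the larger library-totals counts was not tested.

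An interaction term in edgeR asked if the AL-X effect of a line set it apart from the remaining pair of lines. Of all genes, 0.261% differed in HCC827, 0.28% in A549 and 0% in H1975 at an adjusted p of 0.05. Of the 50 members, 0 did in any line. At an unadjusted p under 0.05, 10 members differed in HCC827, or 20.0% against 8.19% of all genes, 6 in A549, or 12% against 11%, and 0 in H1975. The members with the lowest p in HCC827 were UBE2C (difference -3.95 log2 units, SE 1.19, edgeR adjusted p = 0.128), CKS2 (-3.92, SE 1.20, adjusted p = 0.137) and CDK1 (-3.72, SE 1.15, adjusted p = 0.139). The median difference over the 50 members was -1.51, 1.20 and 0.24 in HCC827, A549 and H1975, beside 0.14, -0.07 and 0.04 over all genes. DESeq2 called CKS2 and CDK1 in HCC827 and UBE2C in A549, and limma-voom called CKS2 and UBE2C in HCC827 and UBE2C in A549. The shares of all genes that DESeq2 and limma-voom called in the interaction test are not given here, so these calls have no background beside them. The interaction fit leaves 1 residual degree of freedom and takes the single line to vary like the others.

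The folds went with gene length in A549 and H1975, among the members as among all protein-coding genes. Exonic length, the merged length of a gene's annotated exons in GENCODE 29, ran from 613 bases (CKS2) to 12807 (MKI67), with a median of 3947. The 25 members at or above the median had a median log2 fold of 0.14 in A549 against 0.85 for the 25 shorter ones, a difference of -0.71, where protein-coding genes split at the same length differed by -1.23. In H1975 the difference was -0.55 for members and -0.64 for protein-coding genes. In HCC827 it was -0.14 and -0.04, so long and short members were alike there, at -1.52 and -1.38. Spearman's rho of fold on length, as a description over genes that share their libraries, was -0.423 in A549 and -0.526 in H1975 (n = 50 each) and -0.143 in HCC827 (n = 49). For protein-coding genes rho was -0.343, -0.351 and -0.062.

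The ends of the length range show the pattern by name. The 10 longest members, among them MKI67, CENPF, ASPM, KNL1, CENPE and ESPL1, had median folds of -1.08, -1.61 and -1.45 in A549, HCC827 and H1975. The 10 shortest, among them CKS2, UBE2C, PTTG1, CDC20 and CKS1B, had 1.19, -1.51 and 0.76. With the trend of all protein-coding genes removed, the longest stood at -0.38, -1.45 and -1.08 and the shortest at 0.37, -1.50 and 0.15. Several genes lay off the trend. SPC24 (2839 bases) and CENPA (1983 bases) are short and were low, at -4.09 and -2.46 in A549 after removal. BUB3 (8300 bases) is long and was high, at 2.49 in A549. CKS2 stayed at 2.61 in A549 and 2.21 in H1975. CENPF in A549 was at -0.92 after removal against -2.0 before, and MKI67 at 0.09 against -1.08. In HCC827, removal left the members' median at -1.36 in both the long and the short set.

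**Figure D4:**
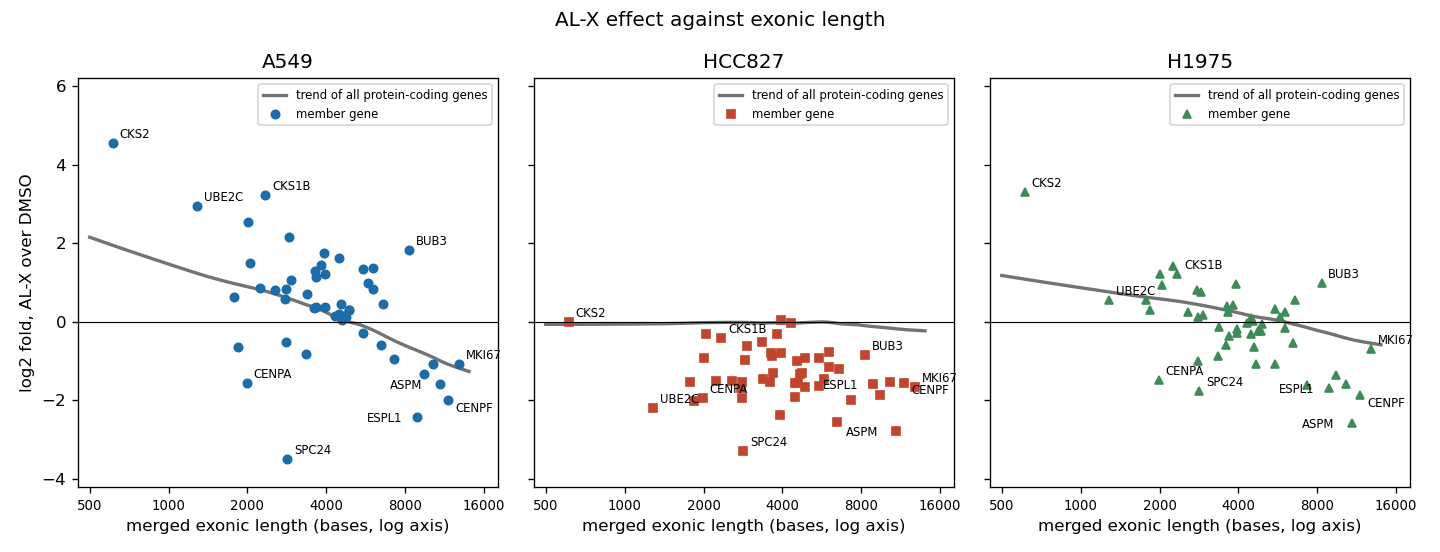
Log2 fold (AL-X over DMSO) of the 50 genes against merged exonic length (bases, log axis) in A549, HCC827 and H1975, with the lowess trend of all protein-coding genes of at least 5 CPM as a grey line. The trend falls with length in A549 and H1975 and is nearly flat in HCC827, where all members except CKS2, HMMR and CDC25B lie clearly under it, and SPC24 and CENPA lie under it in all 3 panels.

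The folds of the members were ranked alike in A549 and H1975 (Spearman's rho 0.872 over 50 genes, 0.788 with the length trend removed), less so in A549 and HCC827 (0.538, 0.513) and in HCC827 and H1975 (0.452, 0.452). The genes share their libraries and the dependence on length, and these values are a description.

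Other genes of the pathway were read from 8 lists, drawn up by gene function with earlier results of these data known. Of all genes at 5 CPM in HCC827, 52% were lower by any amount and 17.3% at least 2-fold lower, and the counts of list genes in that line stand beside these shares. Among chromosomal passenger and centralspindlin genes, 6 of 6 were lower in HCC827 (median -0.49), with medians of 1.14 in A549 and 0.19 in H1975. CIT, the citron kinase of the midbody, had 16.6 CPM with AL-X against 152 with DMSO in A549 cells, 25.3 against 126 in HCC827 cells and 28.6 against 73.5 in H1975 cells (edgeR adjusted p = 0.109), and the borealin gene CDCA8 was at 1.91, -0.57 and 1.12 in A549, HCC827 and H1975. Of the other mitotic motors and spindle proteins, 24 of 24 were lower in HCC827, and 9 (37.5%) at least 2-fold, while the medians were 0.24 in A549 and -0.12 in H1975. KIF15, a motor that backs up KIF11, was at -1.40, -1.47 and -0.40 in A549, HCC827 and H1975, and FAM83D, which positions the spindle, at 2.23, -1.03 and 1.63.

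Of 28 further centromere and kinetochore genes, 24 were lower in HCC827 (median -0.85), with medians of 0.54 in A549 and 0.24 in H1975. CENPI was at the low end (-2.78, -2.37 and -1.59 in A549, HCC827 and H1975) and CENPL at the high end (3.14, 0.01 and 1.07). Condensin and cohesin genes had medians of 0.75, -0.53 and -0.31 in A549, HCC827 and H1975, from the condensin II subunit NCAPD3 (-1.05, -1.35 and -0.45) to the cohesin release factor WAPL (2.39, 0.36 and 0.03). The APC/C list differed in HCC827, where its median was -0.02, with 0.82 in A549 and 0.30 in H1975. In it UBE2S, which extends ubiquitin chains on APC/C substrates, had 2310 CPM with AL-X against 136 with DMSO in A549, with 150 against 95.4 in HCC827 and 807 against 243 in H1975 cells. The core subunit ANAPC4 was lower, at -1.60, -1.15 and -0.71. Of the 96 genes of these 5 lists, 0 passed across the lines in edgeR, with 8 (8.33%) at an unadjusted p under 0.05, 3 (3.12%) called by DESeq2 and 2 (2.08%) by limma-voom. Each share was under that of all genes (15.7%, 9.76% and 3.25%). With library totals all 5 medians were under 0 in A549 except that of the passenger list (0.13), in H1975 each was under 0, and that of the APC/C list was 0.10 in HCC827.

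Of the regulators upstream, those that restrain CDK1 were higher with AL-X in 12 of 14 genes at 5 CPM in A549, 7 of 12 in HCC827 and 9 of 11 in H1975. Of all genes at that level 49.9%, 48% and 52.4% were higher in A549, HCC827 and H1975, so the HCC827 count is close to the background. The other 5 in HCC827 were lower, among them the kinase genes WEE1 (log2 fold -0.74), PKMYT1 (-1.21), CHEK1 (-1.32) and CHEK2 (-1.36). In the MuvB and DREAM list the medians were 0.66 in A549, -0.34 in HCC827 and 0.29 in H1975 (-0.35, -0.21 and -0.13 with library totals), with the E2F partner TFDP2 at -2.65, -2.02 and -1.63 (across-line log2 fold -2.11, SE 0.52, edgeR adjusted p = 0.12) and the MuvB subunit LIN37 at 2.55, 1.65 and 0.41. The list of G2 arrest and CDK1 restraint had medians of 2.26, 0.84 and 0.99, and in it 1 of 15 genes passed across the lines in edgeR. This was PLK3, a stress-responsive polo-like kinase, which rose by 3.32 log2 units (SE 0.56, adjusted p = 0.0395), with 60.0 CPM with AL-X against 8.31 with DMSO in A549 cells, 54.1 against 8.42 in HCC827 cells and 150 against 6.77 in H1975 cells. PLK3 did not pass with library totals (adjusted p = 0.225), with mitochondrial genes left out (0.0645), without a filter (0.255) or without H1975 (0.156). CDKN1A, which encodes the CDK inhibitor p21, had 3310 CPM with AL-X against 50.2 with DMSO in A549, with 149 against 11.6 in HCC827 and 321 against 41.5 in H1975, and did not pass (log2 fold 4.17, SE 0.85, edgeR adjusted p = 0.0731), though it did without A549 (adjusted p = 0.00166) and without HCC827 (0.0437). GADD45B, a stress gene whose product can inhibit CDK1, was at 8.36 in A549, 1.61 in HCC827 and 5.88 in H1975. Its HCC827 fold differed from that of the other lines by -5.50 log2 units in the edgeR interaction test (adjusted p = 0.0278), and by -4.67 with library totals (adjusted p = 0.278).

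The G1/S and DNA replication list was lower in HCC827, as the mitotic genes were. There, 21 of 30 genes (70.0%, beside 17.3% of all genes) were at least 2-fold lower and 29 were lower, beside 52% of all genes (median -1.49), with medians of 0.13 in A549 and 0.32 in H1975 (-0.88 and -0.09 when scaled by library totals). E2F2, an activator of replication genes, had 0.414 CPM with AL-X against 17.3 with DMSO in A549 cells, 1.29 against 9.85 in HCC827 cells and 0.968 against 14.5 in H1975 cells (log2 fold -4.05, SE 0.83, edgeR adjusted p = 0.0791). Cyclin E1 (CCNE1), the S-phase entry cyclin, had 908 CPM with AL-X against 18.2 with DMSO in A549, with 17.6 against 11.3 in HCC827 and 122 against 16.1 in H1975 (adjusted p = 0.175 in edgeR).

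**Figure D5:**
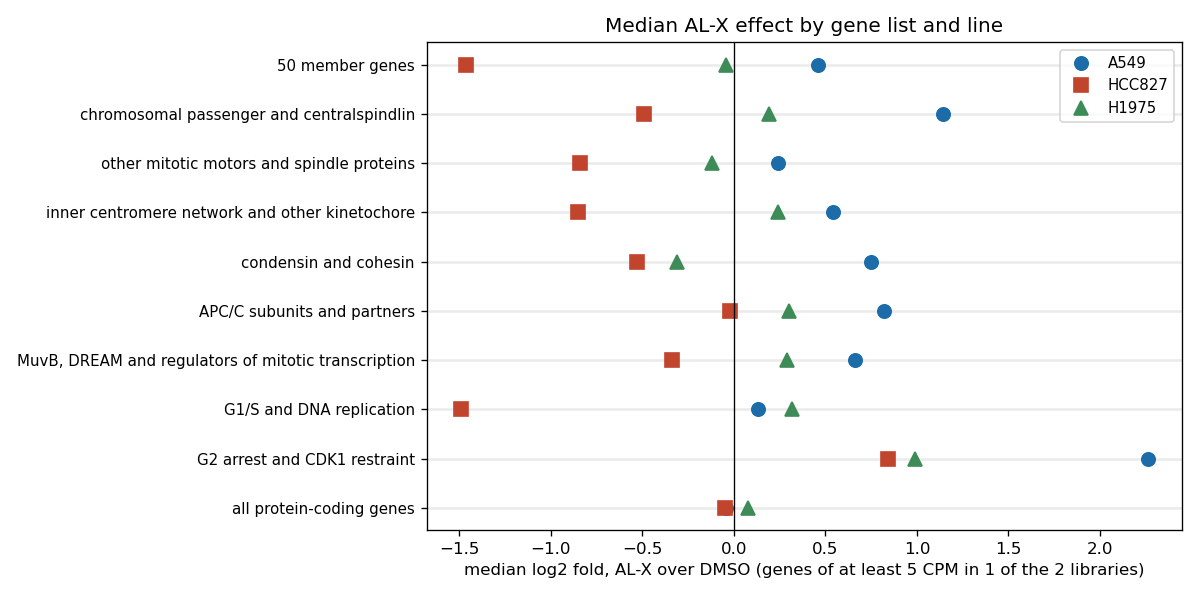
Median log2 fold (AL-X over DMSO) of the 50 mitotic genes, of 8 related lists and of all protein-coding genes in A549 (circles), HCC827 (squares) and H1975 (triangles), over genes that reach 5 CPM in 1 of the 2 libraries. The HCC827 medians of the mitotic genes (-1.46) and of the G1/S list (-1.49) lie lowest, and the G2 arrest list lies right of 0 in each line (2.26, 0.84 and 0.99); for all protein-coding genes the A549 point at -0.04 is hidden by that of HCC827 at -0.05.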

How the data were processed

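The deposited table holds raw counts, whole numbers of reads for 60671 Ensembl genes in 6 columns, with no scaling by the authors. Per the labels' protocols, Trizol was used to extract RNA, and libraries came from the SureSelect XT HS2 mRNA kit with size selection on beads. Per the submitters' processing notes, bcl2fastq 2.20 and build GRCh38 were used. The aligner, counter, annotation release and strand setting were not given in the sources used here, so overlapping, antisense and near-identical genes may share counts. Symbols were matched for 60401 identifiers. Positions and exonic lengths came from GENCODE release 29 (58453 identifiers).

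Counts were scaled by TMM and tested with edgeR 4.0.16 in R 4.3.3 (filterByExpr on treatment, robust quasi-likelihood test, cell line as block from the cell line label, 2 residual degrees of freedom, Benjamini-Hochberg at 0.05). An SE was derived from the fold and its F value. The lines are the replicates, each with a single pair of libraries. The p-values thus rest on how far the AL-X effect differed between these lines, moderated over all genes. Technical spread between libraries is part of that difference and cannot be told apart from it. A pair was formed by the AL-X and DMSO libraries of the same line, as the labels give it. Within a line, log2 CPM folds used a prior count of 2 and a minimum of 5 CPM. Exact binomial 95% intervals cover counting error only, not the spread between libraries. They may be too narrow even for counting error, because PCR copies may be counted. The length trend was a lowess curve (fraction 0.3) of fold on log2 exonic length. Only the edgeR across-line fit and the HCC827 interaction fit were tried on simulated counts, with results not given here. Those counts held no length trend and no shift in scaling like that of the A549 libraries. The within-line folds, intervals and length trend were not tried in this way.

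Alternatives were DESeq2 size factors, library totals, mitochondrial genes left out, no filter, 1 CPM in 3 libraries, DESeq2 1.42.0, limma-voom (limma 3.58.1), no robust shrinkage, no block, each line left out, a prior count of 0.5, no CPM minimum and the length trend removed. The members and lists were chosen with earlier results of these data known. The rule for named genes gave values in every library for members past a test, the 3 highest and 3 lowest of each line and 14 representatives of the roles. Of the other lists it named genes past a test and up to 4 at the ends of the across-line fold. WEE1, PKMYT1, CHEK1 and CHEK2 were named after their values were seen. The sums of PRC1 and NUSAP1 with their overlapping models were added after seeing the data, and the NDC80 complex subunits per kilobase and the other members named with folds were singled out after their values were seen.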

Additional observations from a re-analysis of the deposited data

Results flagged for a closer look

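GADD45B was flagged because its AL-X effect in HCC827 differed from that in the other lines, by -5.50 log2 units in the edgeR interaction test (adjusted p = 0.0278, with 1 residual degree of freedom). It had 26.3 CPM with AL-X against 8.61 with DMSO in HCC827, 6650 against 20.3 in A549 and 1790 against 30.3 in H1975.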

How the results depend on the processing

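No member passed across the lines in edgeR, and this count stayed at 0 with DESeq2 size factors, library totals, mitochondrial genes left out, both filters and no robust shrinkage. DESeq2 had 1 member higher and 7 lower, and limma-voom 1 higher and 3 lower. Leaving out each line gave 0 to 1 higher (CKS2 without HCC827, adjusted p = 0.0208) and 0 to 1 lower (ASPM without A549, adjusted p = 0.0116). Without the replicate block that pairs libraries by line, PLK3 no longer passed (adjusted p = 0.569), 0 members passed in either direction and the members' median across-line log2 fold was 0.00. Leaving out each line moved that median between -0.65 and 0.22. Members whose fold differed in A549 numbered 1 with DESeq2 and 1 with limma-voom, and in HCC827 2 with each. Shares of all genes for these interaction calls are not given here. With library totals, A549 had 5 members 2-fold higher (10.0%, beside 12.7% of all genes) and 14 lower (28.0%, beside 52.0%). H1975 had 2 higher (4.0%, beside 6.9%) and 15 lower (30.0%, beside 28.2%). On that scale the members' medians became -0.55 (A549), -1.33 (HCC827) and -0.45 (H1975), and MAD2L1 in A549 was at 0.00. Library totals changed the sign of 19 member folds in A549, 10 in H1975 and 1 in HCC827. With the length trend removed, the median was 0.13 in A549 and -0.24 in H1975, and MKI67 in A549 was at 0.09. In H1975, 2 members were then at least 2-fold higher (4.0%, beside 11.0% of protein-coding genes). The cause of these differences was not tested.

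With 1 library per line and treatment, the spread within a line is unknown. The members had at least 143 counts in a library, and the counting interval of the fold included 0 for 1 member in A549, 2 in HCC827 and 2 in H1975. Changes in the share of cells in G2 or M were not measured.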
